A study of Mus musculus with 2 samples.

Results

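NF-kB is a family of transcription factors held inactive in the cytoplasm by IkB proteins. Receptors for TNF, interleukin-1 and microbial products recruit adapters and ubiquitin ligases, which activate the kinase TAK1 and then the IKK complex. IKK marks IkB for destruction, and the freed factors switch on inflammatory genes and, among them, the genes of their own inhibitors. A slower alternative route runs through the kinase NIK and the processing of the p100 precursor. In gut epithelium the pathway is known for barrier defence and for keeping cells alive under TNF.

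The genes described here are 49 named components and feedback targets of this pathway, with chemokines and cell death genes left out, and each was looked up by its symbol in the expression table. Of the 49, 47 had a row among the 12631 rows of the table, and Nod2 and Tlr4, receptors for bacterial muramyl dipeptide and lipopolysaccharide, had none. The data came from 2 epithelial RNA libraries of C57BL/6 mice aged 8 weeks, 1 from a Myh9-/- animal and 1 from a wild type control. Tamoxifen was injected daily on 5 days in both genotypes, and RNA was taken at day 5. The allele, the Cre driver and the deleted exons of Myh9 are not given in the sources used here. Myh9 encodes a heavy chain of non-muscle myosin. The study asks, by its title, how this gene maintains the intestine and limits necroptosis and adenoma.

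Levels are the deposited values minus the 1 that the authors had added, and their unit is unknown from those sources, so levels are compared between libraries and not between genes. Sequencing depth is unknown. Each group had 1 sample, so no value has a replicate error, and no difference was tested. Folds are the level plus 1 in the knockout over the level plus 1 in the control, which understates differences of low genes. Genes entered the comparison if the library with more of the transcript reached a level of 1. A gene is called higher or lower when past 1.4-fold, the threshold that the labels state. In a bulk preparation, fewer cells of a type and less RNA per cell cannot be told apart.

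Myh9 itself was 13.6 in the knockout and 99.5 in the control, 6.89-fold lower. The epithelial markers Epcam (633 in the knockout, 680 in the control) and Vil1 (808 in the knockout, 962 in the control) were present in both libraries. Of 10 epithelial markers, 2 were higher (Krt18, 1.95-fold, and Krt20, 1.41-fold), 1 was lower (Cdx2, 1.53-fold) and 7 lay between. For this and the marker counts below, 15.9% of all included genes were higher and 16.3% lower. T cell and intraepithelial lymphocyte markers were also present, with a summed level of 287 in the knockout and 555 in the control over 13 genes. Of these 13, 10 were lower in the knockout, among them Ptprc (10.2 in the knockout, 18.6 in the control), and 1 was higher. That gene was Cd4 (1.11 in the knockout, 0.257 in the control), which entered through the knockout level alone. Plasma and B cell markers summed to 804 in the knockout and 268 in the control over 7 genes with a row. Stromal and endothelial markers summed to 41.7 in the knockout and 41.5 in the control over 8 genes. Of the 7 included, 3 were higher (Acta2, Col3a1 and Lum, of which Acta2 and Lum entered through the knockout level alone) and 0 were lower; Col1a1 was 2.01 in the knockout and 2.16 in the control, and Pecam1 had no row.

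Of the 46 included NF-kB genes, 13 were higher in the knockout and 0 were lower. Among all 12152 included genes, 15.9% were higher and 16.3% lower, and the share higher among the NF-kB genes was 28.3%. The median log2 fold was 0.32 over the NF-kB genes and -0.0037 over all included genes. At 1.5-fold, 8 were higher (17.4%), beside 12.3% of all included genes. At 2-fold, Lcn2 and Icam1 were higher, a share of 4.35% that was near the 4.49% of all included genes. In rank, 24 of the 46 fell in the highest 25% of all included genes by log2 fold, 8 in the highest 10% and 2 in the lowest 25%. The 24 include Tnfaip2, Tnf and Rel, and the 8 include Tnfaip2, all of which entered through the knockout level alone.

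In 4 cases (Tnf, Tnfaip2, Rel and Tlr2) the control level was under 1, so the knockout alone brought the gene in, and the direction was fixed by that. Of the 42 with a level of at least 1 in both libraries, 11 were higher (26.2%), beside 13.9% of all genes under the same restriction. The remaining gene with a row, Traf1, had a level of 0.726 in the knockout and 0.815 in the control and was not included. Just above the threshold, 5 genes had a fold under 1.5, and just below it 6 genes had a fold of at least 1.3. Without a pseudocount, 21 of the 46 were higher (45.7%) and 1 was lower (Traf5), beside 18.6% and 19.7% of all genes with a level above 0 in both libraries. Equal totals after dropping mitochondrial-genome genes and the top 20 genes shifted the median log2 fold of all genes to 0.097 and that of the NF-kB genes to 0.42. Under that scaling 17 of the 46 were higher, beside 20.3% of all genes, and 0 were lower; of all genes called in either direction, 61.4% were higher under it and 49.4% without it.

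**Figure D1:**
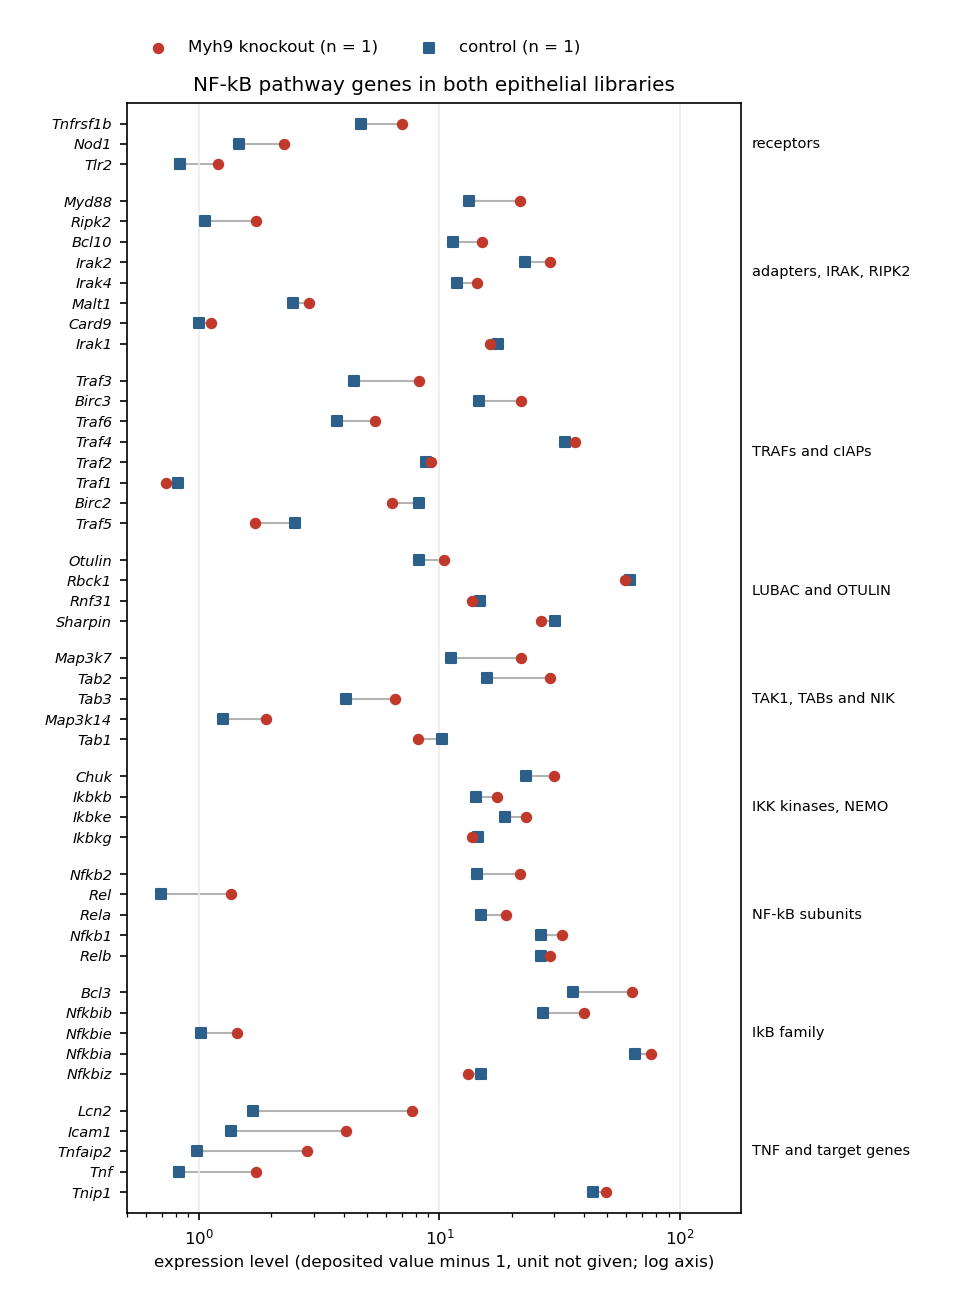
Expression level on a log axis of the 47 NF-kB genes with a row, in the Myh9 knockout library (circles) and the control library (squares), 1 library each, grouped by role. The gap between the points of a gene is the difference between the libraries; it is widest for Lcn2 (7.70 in the knockout, 1.67 in the control).

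**Figure D2:**
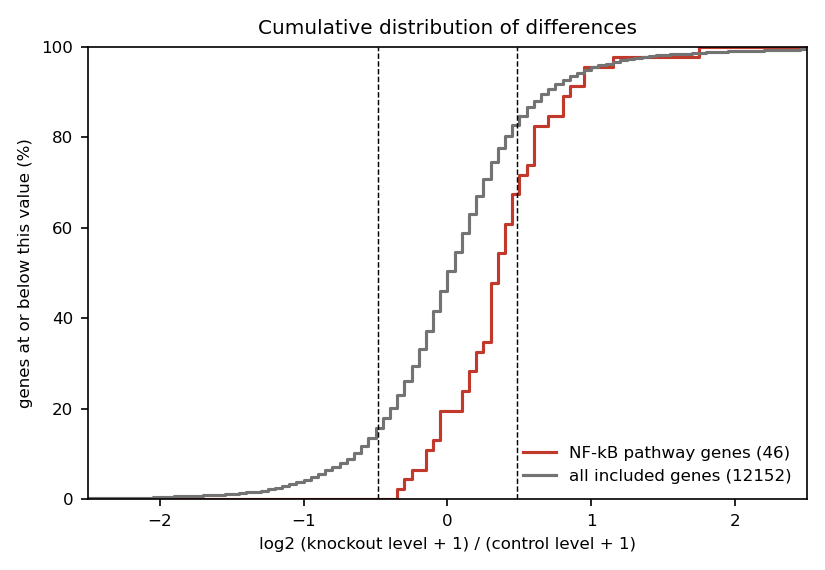
Percentage of genes at or below each log2 fold, for the 46 included NF-kB genes and for all 12152 included genes, with dashed lines at 1.4-fold in each direction. The curve of the NF-kB genes lies to the right through the middle of the range (median 0.32, against -0.0037 for all genes), and the curves meet near 2-fold.

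Some pathway genes are themselves targets of the factor, and the letters of its recognition sequence stand close to their start sites. RefSeq promoter windows (GRCm38.p6, 250 bases before to 50 bases after each start) were found for 39 of the 47 genes. The NF-kB consensus was GGGRNNYYCC (R is A or G, Y is C or T, N is any base), searched on both strands. It was present in a window of 12 of these 39 genes (30.8%). The share was 9.55% of all 27025 genes with a window and 12.2% of the 8813 of these that were included. The set was named in part for feedback targets of the factor, so its larger share says nothing about these libraries. A narrower form, GGGAN followed directly by TTTCC and searched on both strands, was present for 3 of the 39 (Map3k7, Nfkb2 and Nfkbia, 7.69%) compared with 0.466% of all genes with a window; every such match is also a match to the consensus. Of the 13 higher genes 5 had a consensus match (38.5%), and of the 26 other genes with a window 7 had one (26.9%). The higher genes with a window and no match were Lcn2, Icam1, Tnf, Birc3, Myd88, Nfkbib, Tab2 and Tab3. Lcn2 and Icam1 had the largest folds of the set. A match describes letters and does not show that the factor binds.

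Upstream matches are shown first for those higher genes that have them. All stretches run 5′ to 3′ on the gene's strand, with the matched letters in capitals, and are cut to at most 30 bases where an annotated exon overlaps. The Map3k7 stretch is chr4:31963970-31964069 on the plus strand, with its match at -92 to -83 from the start site. The Traf3 stretch is chr12:111166315-111166369 on the plus strand, with the match ending at the base before the start. The Tnfaip2 stretch is chr12:111442627-111442656, also on the plus strand. For Nfkb2 a palindromic cluster 39 bases before the upstream RefSeq start is given (chr19:46304689-46304717, plus strand). A match 225 bases before a start further downstream is given too (chr19:46305695-46305724). Its letters also lie 11 to 20 bases after another RefSeq start. Both Nfkb2 stretches and the Tnfaip2 stretch overlap annotated exons of their own gene. They lie past the annotated gene starts (46304320 for Nfkb2, 111442469 for Tnfaip2), so they are upstream only of a RefSeq start.
Map3k7: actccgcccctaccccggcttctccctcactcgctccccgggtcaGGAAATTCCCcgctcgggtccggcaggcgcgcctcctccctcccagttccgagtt
Traf3: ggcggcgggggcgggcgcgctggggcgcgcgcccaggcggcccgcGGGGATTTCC
Tnfaip2: gactattttaGGAGGGCCCCtccagggtcg
Nfkb2, upstream start: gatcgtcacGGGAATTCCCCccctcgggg
Nfkb2, downstream start: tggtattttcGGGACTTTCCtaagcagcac

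The inhibitors Nfkbia and Tnip1 and the subunit gene Rel hold such letters too and were within 1.4-fold; they were chosen after their values were seen, to set beside the higher genes. All 3 stretches lie on the minus strand, Nfkbia at chr12:55492648-55492721, Tnip1 at chr11:54962942-54963043 and Rel at chr11:23771006-23771106.
Nfkbia: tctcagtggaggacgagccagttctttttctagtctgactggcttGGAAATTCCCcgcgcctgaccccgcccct
Tnip1: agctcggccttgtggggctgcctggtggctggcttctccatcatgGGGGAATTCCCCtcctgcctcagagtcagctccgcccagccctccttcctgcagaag
Rel: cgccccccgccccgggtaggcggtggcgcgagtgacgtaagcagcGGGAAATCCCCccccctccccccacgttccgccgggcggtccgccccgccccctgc

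**Figure D3:**
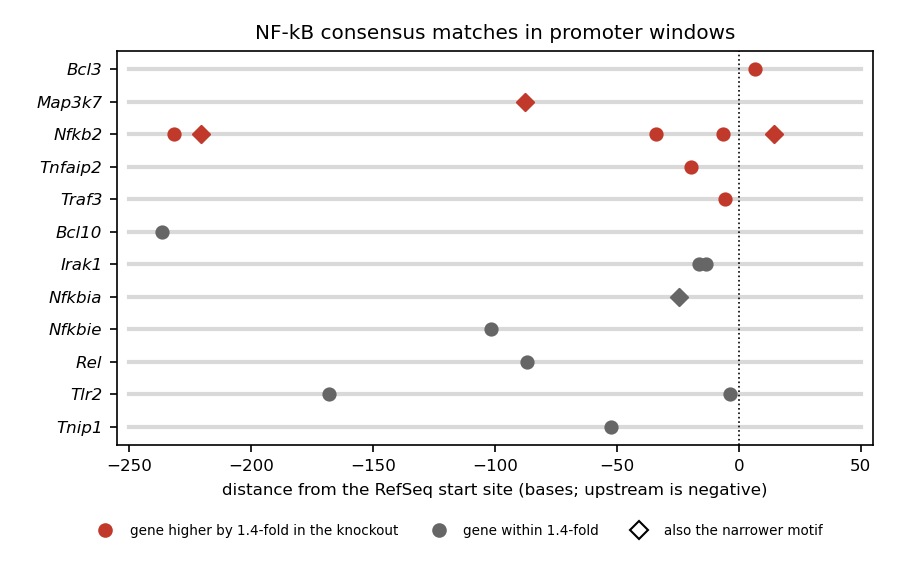
Distance in bases from the RefSeq start site to the centre of each NF-kB consensus match, for the 12 NF-kB genes with a match in any window; diamonds mark matches that also fit the narrower form, and color marks genes higher by 1.4-fold in the knockout (5 genes) or within 1.4-fold (7 genes). Nfkb2 has the most places marked, from several start sites, and the match of Bcl3 lies after its start. For Nfkb2 and Irak1 the same letters are marked from different start sites.

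Of the cytokine and the downstream targets, Lcn2, Icam1, Tnfaip2 and Tnf were past 1.4-fold and Tnip1 was not. Tnfaip2 and Tnf entered through the knockout level alone. Of the 3 with a level of at least 1 in both libraries, 2 were higher (66.7%), beside 13.9% of all genes under the same restriction. Lcn2, which encodes the siderophore-binding antibacterial protein lipocalin 2, had a level of 7.70 in the knockout and 1.67 in the control, 3.25-fold higher. Only 165 of the 12152 included genes had a larger log2 fold. Icam1, the adhesion molecule that binds leukocyte integrins, was 4.08 in the knockout and 1.36 in the control, 2.15-fold higher. It is also the 1 gene of the 49 in the authors' short table of selected genes, where 4 genes carry the mark nfkb (Icam1, Ccl20, Cxcl2 and Ccl5). Tnfaip2, a TNF-induced gene, was 2.81 in the knockout and 0.977 in the control, 1.93-fold higher. Tnf, the cytokine itself, was 1.73 in the knockout and 0.822 in the control, 1.50-fold higher. Tnip1, which encodes the A20-binding inhibitor ABIN1, was 49.2 in the knockout and 43.6 in the control, within 1.4-fold.

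Several of these targets are also made by leukocytes, so marker genes are given beside them. Lcn2 is a granule protein of neutrophils as well as an epithelial product. Of the 10 neutrophil markers, 3 had a row and all 3 were higher: Ltf at 9.66 in the knockout and 2.58 in the control, S100a9 at 1.44 in the knockout and listed at 0 in the control, and Ly6g at 1.20 in the knockout and listed at 0 in the control. S100a9 and Ly6g entered through the knockout level alone. S100a8, Mpo and Elane had no row. Over 10 macrophage and dendritic cell markers with a row, the summed level was 50.0 in the knockout and 53.3 in the control. Of these, 5 genes were higher, Cd68 (3.02 in the knockout, 0.266 in the control) by the most. Another 3 were lower, Fcer1g (13.7 in the knockout, 26.3 in the control) by the most, and among them Itgam (3.75 in the knockout, 5.68 in the control). Fcer1g had the largest level of the list in each library, so it weighs most on the sum. Of those 5 higher genes, 4 entered through the knockout level alone, Cd68 among them. Beside these marker counts, 15.9% of all included genes were higher and 16.3% lower. Adgre1, a macrophage marker, had no row. The part of these cells in the levels of Lcn2, Icam1, Tnfaip2 and Tnf was not tested.

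The 3 included receptor genes lay within 1.4-fold, where 15.9% of all included genes were higher and 16.3% lower. Tnfrsf1b, the TNF receptor found on leukocytes and some epithelial cells, was 6.97 in the knockout and 4.74 in the control, a fold of 1.39 that stood just below the threshold and passed it under 4 of 10 alternative settings. Nod1, the cytosolic sensor of bacterial peptidoglycan fragments, was 2.25 in the knockout and 1.46 in the control. Tlr2, the receptor for bacterial lipoproteins, was 1.20 in the knockout and 0.837 in the control.

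Of the 8 adapters and their kinases, 1 was higher (12.5%), beside 15.9% of all included genes. Myd88, the adapter shared by most Toll-like receptors and the interleukin-1 receptor, was 21.7 in the knockout and 13.2 in the control, 1.60-fold higher (chromosome 9, gene start 119335934). Its exons overlap those of Acaa1a, which was 84.2 in the knockout and 127 in the control, and reads of the overlap cannot be told apart without strand. The kinases that Myd88 recruits stood closer to the control. Irak4 was 14.3 in the knockout and 11.8 in the control, Irak2 was 28.8 in the knockout and 22.6 in the control, and Irak1 was 16.3 in the knockout and 17.5 in the control. Ripk2, the kinase downstream of the NOD receptors, was 1.73 in the knockout and 1.05 in the control. In the CARD-BCL10-MALT1 module, which links antigen and lectin receptors to IKK, Bcl10 was 15.0 in the knockout and 11.4 in the control, Malt1 was 2.86 in the knockout and 2.47 in the control, and Card9 was 1.12 in the knockout and 1.00 in the control. None of these 3 was called.

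Of the 7 included TRAF and cIAP genes, 2 were higher (28.6%), beside 15.9% of all included genes. TRAF proteins dock on receptors and carry ubiquitin ligases, and the cIAP ligases encoded by Birc2 and Birc3 bind TRAF2. Traf3, which holds NIK for degradation and so restrains the alternative route, was 8.25 in the knockout and 4.41 in the control, 1.71-fold higher. Birc3, a cIAP gene and an NF-kB target, was 21.9 in the knockout and 14.6 in the control, 1.47-fold higher. Its neighbour Birc2, 11635 bases away on chromosome 9, was 6.34 in the knockout and 8.26 in the control, a log2 fold of -0.34. Of this adjacent pair, Birc3 was past 1.4-fold and Birc2 was not; the difference between them was not tested. Traf6, the ligase of the Toll-like and interleukin-1 receptor branch, was 5.39 in the knockout and 3.74 in the control, a fold of 1.35. Traf2 was 9.26 in the knockout and 8.76 in the control, and Traf4 was 36.6 in the knockout and 33.5 in the control. Traf5 had the lowest log2 fold of the 46 genes, -0.37, at 1.71 in the knockout and 2.51 in the control. It was called lower without a pseudocount (log2 fold -0.55) and at a pseudocount of 0.1 (-0.53).

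The linear ubiquitin chain assembly complex and its opposing enzyme lay within 1.4-fold in all 4 cases. Of all included genes, 15.9% were higher and 16.3% lower. Rnf31, the catalytic subunit HOIP, was 13.7 in the knockout and 14.8 in the control. Rbck1, which encodes HOIL-1, was 59.1 in the knockout and 62.3 in the control, and Sharpin was 26.4 in the knockout and 30.4 in the control. Otulin, the enzyme that removes linear chains, was 10.5 in the knockout and 8.26 in the control. Their log2 folds ran between -0.19 and 0.31. Sharpin, Otulin, Tab1 and Irak4 lie on chromosome 15, as does Myh9; none of these 4 was called, and Sharpin and Tab1, the nearest, are 1409476 and 2290952 bases from it.

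Of the 5 genes of TAK1, its TAB partners and NIK, 3 were higher, beside 15.9% of all included genes. Map3k7, the gene of the kinase TAK1, was 21.9 in the knockout and 11.2 in the control, 1.88-fold higher (chromosome 4, gene start 31964097). Tab2, an adapter that binds the ubiquitin chains on which TAK1 assembles, was 28.8 in the knockout and 15.8 in the control, 1.77-fold higher. Tab3, a close relative of Tab2, was 6.54 in the knockout and 4.10 in the control, 1.48-fold higher. The 3 genes lie on chromosomes 4, 10 and X. Tab1, the subunit that activates the kinase by direct binding, was 8.11 in the knockout and 10.2 in the control, a log2 fold of -0.30, within 1.4-fold. Map3k14, the gene of NIK, was 1.89 in the knockout and 1.26 in the control, with a fold of 1.28 on the scale of level plus 1 and of 1.50 on the levels themselves.

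None of the 4 IKK genes was called, where 15.9% of all included genes were higher and 16.3% lower. Chuk, which encodes IKK-alpha, was 30.0 in the knockout and 22.8 in the control, a fold of 1.30. Ikbkb, which encodes IKK-beta, was 17.4 in the knockout and 14.1 in the control. Ikbkg, which encodes the regulatory subunit NEMO, was 13.7 in the knockout and 14.4 in the control. Ikbke, a related kinase of the interferon branch, was 22.8 in the knockout and 18.7 in the control.

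Of the 5 genes for NF-kB subunits, 1 was called higher (20%), beside 15.9% of all included genes. Nfkb2, the gene of p100 and its processed form p52, was 21.6 in the knockout and 14.3 in the control, 1.48-fold higher (chromosome 19, gene start 46304320). Its partner Relb, which p100 retains in the cytoplasm, was 28.7 in the knockout and 26.6 in the control. Rela, the main activating subunit of the classical route, was 19.0 in the knockout and 14.9 in the control, a fold of 1.26. Nfkb1, the gene of p105 and p50, was 32.5 in the knockout and 26.5 in the control. Rel, which is best known in lymphocytes, was 1.36 in the knockout and 0.695 in the control, a fold of 1.39 at the edge of the threshold. Of the 13 T cell and intraepithelial lymphocyte markers, 10 were lower, among them Cd3e (8.87 in the knockout, 17.0 in the control, 1.83-fold lower). The 1 higher marker, Cd4 (1.11 in the knockout, 0.257 in the control), entered through its knockout level alone. Plasma and B cell markers summed to 804 in the knockout and 268 in the control over 7 genes. The part of lymphocytes in the level of Rel was not tested.

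Of the 5 IkB family genes, 2 were higher (40%), beside 15.9% of all included genes. Bcl3, a nuclear IkB protein that works with p50 and p52, was 63.3 in the knockout and 36.0 in the control, 1.74-fold higher. Nfkbib, the gene of IkB-beta, was 39.9 in the knockout and 27.1 in the control, 1.46-fold higher. Its exons overlap those of Sirt2, at 22.4 in the knockout and 25.9 in the control. Nfkbia, the gene of IkB-alpha and the best known feedback target of the pathway, was 75.8 in the knockout and 65.2 in the control, a fold of 1.16. Nfkbie, the gene of IkB-epsilon, was 1.43 in the knockout and 1.02 in the control. Nfkbiz, a nuclear family member induced by interleukin-1 and interleukin-17, was 13.2 in the knockout and 15.0 in the control. The rapid feedback genes Nfkbia and Nfkbiz were within 1.4-fold.

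**Figure D4:**
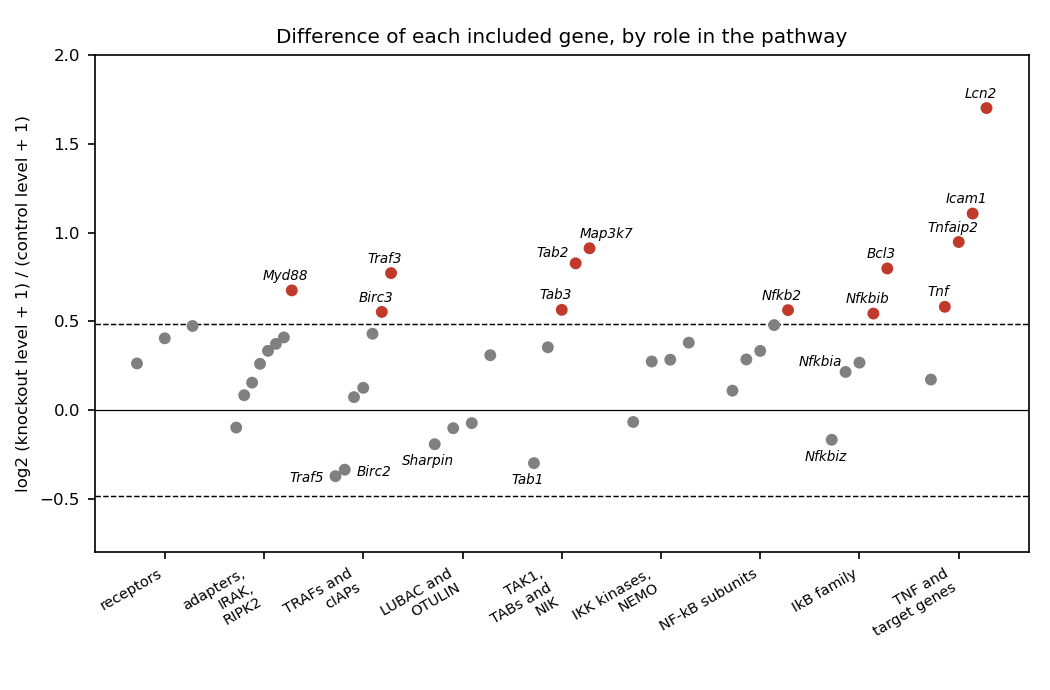
Log2 fold of level plus 1, knockout over control, for each of the 46 included genes by role, with dashed lines at 1.4-fold. The 13 genes past the upper line are named, along with Traf5, Birc2, Tab1, Sharpin, Nfkbiz and Nfkbia. No gene lies past the lower line. The receptor, LUBAC and IKK groups, with 3, 4 and 4 genes, hold no called gene. Of all included genes, 15.9% were higher and 16.3% lower.

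Other genes of the pathway that are not in the set were counted for comparison. Of 53 further components, 40 had a row and 39 were included, with 10 higher (25.6%) and 3 lower (7.69%), beside 15.9% and 16.3% of all included genes. Their median log2 fold was 0.076, which became 0.21 at a minimum level of 5, 0.18 with totals that drop the top genes and 0.16 with equal listed totals. Tnfrsf12a, the receptor of the cytokine TWEAK, stood highest at 28.7 in the knockout and 3.73 in the control, 6.27-fold higher. Next were Tifa, an adapter that oligomerizes TRAF6 after sensing a bacterial sugar, at 56.6 in the knockout and 19.3 in the control, and Tnip3, an A20-binding protein, at 1.82 in the knockout and 0.0760 in the control. Tnip3 entered through its knockout level alone. Among the lower genes were Spata2, a partner of the deubiquitinase CYLD, at 16.6 in the knockout and 25.3 in the control, and Tnfrsf11a, the receptor RANK, at 9.39 in the knockout and 13.8 in the control. Tnfrsf1a, the main TNF receptor of epithelium, was 72.7 in the knockout and 54.6 in the control, a fold of 1.33. Cd14, the co-receptor for lipopolysaccharide, was 7.05 in the knockout and 4.31 in the control, 1.51-fold higher. Tnfaip3, the gene of the feedback inhibitor A20, was 8.05 in the knockout and 11.4 in the control, a log2 fold of -0.46 within 1.4-fold, which passed it at a pseudocount of 0.1 (-0.50) and without a pseudocount (-0.50).

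Targets of NF-kB outside the set went in both directions. Of 26 listed, 17 had a row and 16 were included, with 8 higher (50.0%) and 2 lower (12.5%), beside 15.9% and 16.3% of all included genes. The median log2 fold was 0.42, which became 0.25, with 6 higher of 14, when the mean of both levels had to reach 1. Cd44, an adhesion receptor, was 39.9 in the knockout and 8.48 in the control, Nos2, the inducible nitric oxide synthase, was 115 in the knockout and 33.3 in the control, and F3, which encodes tissue factor, was 7.03 in the knockout and 1.90 in the control. Pigr, the receptor that carries IgA across the epithelium, stood at the other end with 605 in the knockout and 1553 in the control, 2.56-fold lower. Stat5a was 1.71 in the knockout and 3.57 in the control. Tnfaip3 had the lowest log2 fold of those not called, -0.46. Of the 8 higher genes, 2 (Il1b and Mmp9) entered through the knockout level alone. Junb of this list also belongs to the immediate early genes, which respond to tissue handling. Of the 8 included immediate early genes, 4 were higher (50%) and 0 were lower, beside 15.9% and 16.3% of all included genes. Of those 4, Nr4a1 (1.18 in the knockout, 0.399 in the control) entered through the knockout level alone. With both levels at least 1, 3 of 7 were higher (42.9%), beside 13.9% of all genes under the same restriction. Over all 8 the summed level was 143 in the knockout and 89.7 in the control. Of the 5 included heat shock genes, 2 were higher (40%) and 0 were lower, beside the same shares of all included genes. Over all 6 heat shock genes with a row the summed level was 1080 in the knockout and 797 in the control. The part of handling in the NF-kB genes was not tested.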

How the data were processed

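Intestine was treated with EDTA (30 mM) and dithiothreitol (1.5 mM), with an incubation of 30 min, per the labels' protocols. Epithelial RNA was then sequenced. Per the submitters' processing notes, the tools were HISAT2 and StringTie and the build was mm10; their versions and roles are unknown here. The deposited signal values are expression levels to which the authors had added 1: no value was below 1, and values had more than 6 significant digits only before 1 was subtracted. The authors' deposited fold, a ratio of knockout over control, matched the ratio of the deposited values to within a relative difference of 1.22e-07. The summed level was 634492 in the knockout and 671114 in the control, which is not a read total. No steps of whole reads were found (at most 4 of 1720 low genes shared a ratio to 4 digits). The columns were matched to samples by the animal numbers in the table and titles.

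Pseudocount (1), minimum larger level (1) and fold threshold (1.4) were applied to the whole table with pandas 2.3.3 and numpy 2.4.6 under Python 3.11.15. The code was first run on simulated data without noise, which cannot show the error of calls from 1 library per group. The design had left the unit open, and the same size rule was used. Every gene of the set was accounted for. Of the other lists the 3 highest and 3 lowest included genes and Tnfaip3, Tnfrsf1a and Cd14 were to be named, of which 1 is not reported here; for targets 2 were lower, and Tnfaip3 came next. The members, lists and tests were chosen with earlier results of these data known. Gene positions are from GENCODE M21 (GRCm38, the assembly of mm10). Exons of 15 of the 49 genes overlap another gene there, and since no source used here says whether counting used strand, such reads cannot be told apart.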

Additional observations from a re-analysis of the deposited data

How the results depend on the processing

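No paired analysis was possible because each group had 1 sample, and no replicate could be left out. The settings varied were the pseudocount (0.1 or none), the minimum level (none or 5), the threshold (1.5-fold or 2-fold), the scaling of the libraries in 3 ways and, chosen after seeing the data, a minimum on the mean of both levels. The 13 NF-kB genes called higher became 21 without a pseudocount, 19 at 0.1, 8 at 1.5-fold and 2 at 2-fold; the number called lower, 0, became 1 (Traf5) at either pseudocount and stayed 0 under the other settings. The count was 17 with totals equal after dropping mitochondrial-genome and top genes, and 16 with listed totals equal. The share of all genes called higher, 15.9% in the main setting, was 20.3% and 19.0% under these scalings. It was 18.6% without a pseudocount, 18.8% at 0.1, 12.3% at 1.5-fold and 4.49% at 2-fold. The share called lower, 16.3% in the main setting, was 12.7% and 13.6% under the same scalings. It was 19.7% without a pseudocount, 19.6% at 0.1, 12.4% at 1.5-fold and 4.28% at 2-fold. Lcn2 was called under all 10 settings, Nfkbia and Nfkb1 under 0 of 10. Of the other components, the 10 higher became 3 at 2-fold, and the 3 lower became 5 without a pseudocount, 1 at 1.5-fold, 0 at 2-fold, and 1 (beside 12 higher) with the totals that drop the top genes. Of the other targets, 8 higher and 2 lower became 5 and 1 at a minimum level of 5, and 4 and 1 at 2-fold. Over all genes, 1936 higher and 1985 lower became 546 and 520 at 2-fold, and 1341 higher (15.7%) and 1284 lower (15.0%) of the 8566 genes left at a minimum level of 5. The median log2 fold of all genes was 0.097 with the totals that drop the top genes. Unknown depth limits all low levels: 12 of the 46 included genes had both levels under 5, where the pseudocount moves the fold most.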
